A study of Homo sapiens with 8 samples.

Results

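Long intergenic noncoding RNAs (lincRNAs) are transcripts that lie between protein-coding genes and carry symbols made of LINC and a number. Here, the genes with a single symbol of this kind, or LINC-ROR, that reached an FPKM of at least 2 in at least 1 of 4 groups were taken as the expressed lincRNAs, using the row with the highest mean where a symbol had several. FPKM is the number of fragments scaled to transcript length and sequencing depth, so levels can be set side by side between genes of different length. There were 57 such genes among 334 LINC symbols listed. For comparison, 13699 single symbols of any kind, out of 31034 listed, passed the same minimum. The cells were of H9, an established line of human embryonic stem cells, and grew on gels in medium conditioned by feeder cells. The 4 groups were cells induced to mesoderm and taken at day 3.5 on a soft 400 Pa gel, the same on a stiff 60 kPa gel, undifferentiated cells at day 0 on 400 Pa, and undifferentiated cells at day 0 on 60 kPa. Induction used bFgf, Activin, VEGF and BMP4. Each group had 2 libraries of total RNA, and the labels do not say whether these came from separate cultures.

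LincRNAs are spliced and polyadenylated like messenger RNAs. As a class they are known for low levels and for expression restricted to few cell types. In human pluripotent cells several, LINC-ROR among them, have been linked to maintenance of the undifferentiated state. Some symbols given to lincRNAs were later withdrawn because the transcript was found to code for a small protein, to host a microRNA or to start at the promoter of a neighbouring gene.

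The data hold 1 value per gene and group and none per library, so no standard deviation can be given and the depth of the libraries is unknown. Any p-value below is from the authors' deposited table. It rests on 2 libraries per group, and the spread between these may be technical. Because the genes were selected by their level, counts over them are descriptions. In bulk RNA, fewer cells of a type and less RNA per cell cannot be told apart. The values just inside the minimum belonged to LINC01108 with 2.03, LINC01170 with 2.08 and LINC00910 with 2.09 FPKM in their highest group. Those just outside belonged to LINC00883 with 1.96, LINC00882 with 1.84 and LINC00632 with 1.73 FPKM.

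All 57 symbols were found in RefSeq, and for 25 of them RefSeq now uses another name. RefSeq lists 12 as protein-coding, 3 as microRNA host genes, 3 as divergent transcripts, 4 as antisense RNAs and the other 35 as long noncoding RNAs without such a name. The protein-coding ones include LINC00493, now SMIM26, LINC00998, now SMIM30, and LINC00116, now MTLN. Those 3 were among the 8 most abundant of the 57 genes. Their coding frames are printed because they show why a LINC symbol does not by itself mark a noncoding RNA. Each is 1 annotated frame from GENCODE release 29 (build GRCh38), with the start and stop codon in capitals, and they hold 95, 59 and 56 codons before the stop:
SMIM26-201: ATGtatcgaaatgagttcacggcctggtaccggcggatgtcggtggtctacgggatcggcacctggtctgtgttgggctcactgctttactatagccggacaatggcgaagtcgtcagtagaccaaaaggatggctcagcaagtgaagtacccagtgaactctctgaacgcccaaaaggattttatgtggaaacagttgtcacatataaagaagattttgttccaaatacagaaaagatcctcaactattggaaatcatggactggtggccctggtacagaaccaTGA
SMIM30-201: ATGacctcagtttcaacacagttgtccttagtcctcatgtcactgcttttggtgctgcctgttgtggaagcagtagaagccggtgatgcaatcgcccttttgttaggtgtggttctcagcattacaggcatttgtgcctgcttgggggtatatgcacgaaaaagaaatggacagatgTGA
MTLN-202: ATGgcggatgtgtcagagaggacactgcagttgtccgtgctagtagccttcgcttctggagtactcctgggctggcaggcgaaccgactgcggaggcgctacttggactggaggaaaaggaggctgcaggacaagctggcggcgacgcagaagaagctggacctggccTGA

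Promoter sequences from RefSeq (build GRCh38.p14, from 250 bases before to 50 bases after the gene's start) were found for 38 of the 57 genes. 3 of them follow, with every CG dinucleotide in capitals, because the number of CG dinucleotides is set beside the levels further on. LINC01108 (chr6:14285405-14285704, minus strand) and LINC00371 (chr13:51111225-51111524, minus strand) were lower at day 3.5 on both gels, and LINC00936 (chr12:89708705-89709004, plus strand) was higher:
LINC01108: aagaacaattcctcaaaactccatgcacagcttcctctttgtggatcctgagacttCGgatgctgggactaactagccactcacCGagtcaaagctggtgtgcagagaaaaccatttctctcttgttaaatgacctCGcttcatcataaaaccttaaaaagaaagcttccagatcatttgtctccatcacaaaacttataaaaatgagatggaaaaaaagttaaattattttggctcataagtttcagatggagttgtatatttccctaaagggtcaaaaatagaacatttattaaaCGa
LINC00371: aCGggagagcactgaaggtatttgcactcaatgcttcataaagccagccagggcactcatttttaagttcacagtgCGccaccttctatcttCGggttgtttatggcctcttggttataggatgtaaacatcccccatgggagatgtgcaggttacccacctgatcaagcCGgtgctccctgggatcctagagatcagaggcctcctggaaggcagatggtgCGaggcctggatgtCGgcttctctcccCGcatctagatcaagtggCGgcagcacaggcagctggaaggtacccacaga
LINC00936: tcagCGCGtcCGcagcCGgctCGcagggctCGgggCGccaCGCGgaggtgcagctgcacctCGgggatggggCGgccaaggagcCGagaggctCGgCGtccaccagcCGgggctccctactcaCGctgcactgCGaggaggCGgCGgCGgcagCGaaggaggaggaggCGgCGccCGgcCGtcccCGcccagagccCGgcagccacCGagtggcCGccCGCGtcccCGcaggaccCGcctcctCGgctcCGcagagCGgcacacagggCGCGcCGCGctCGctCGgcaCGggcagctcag

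Of the 57 genes, 56 were listed on both days, each at the same locus, and LINC00379 was listed at day 3.5 only. An FPKM of at least 2 was reached by 45 genes on the soft and 47 on the stiff gel at day 3.5, and by 40 on the soft and 43 on the stiff gel at day 0. It was reached in all 4 groups by 32 genes and in 1 group only by 10. A level of at least 10 FPKM in some group was seen for 23 genes and of at least 50 FPKM for 7. The median level was 3.88 FPKM on the soft and 4.595 on the stiff gel at day 3.5, and 3.71 on the soft and 3.96 on the stiff gel at day 0. Over all symbols with the same minimum, the medians lay between 10.8 and 11.2 FPKM in the 4 groups. The lincRNAs were thus among the less abundant genes that pass it.

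A few genes made up much of the summed lincRNA level. The sum was 654.5 FPKM on the soft and 695.5 on the stiff gel at day 3.5, and 850.9 on the soft and 1024.4 on the stiff gel at day 0. The 3 most abundant genes of a group held 38.1% of it on the soft and 34.7% on the stiff gel at day 3.5, and 40.2% on the soft and 45.2% on the stiff gel at day 0. At day 0, on both gels, these were LINC00678, LINC00493 and LINC00458. At day 3.5 they were LINC00493, LINC00998 and LINC00379 on 400 Pa and LINC00493, LINC00458 and LINC01021 on 60 kPa.

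**Figure D1:**
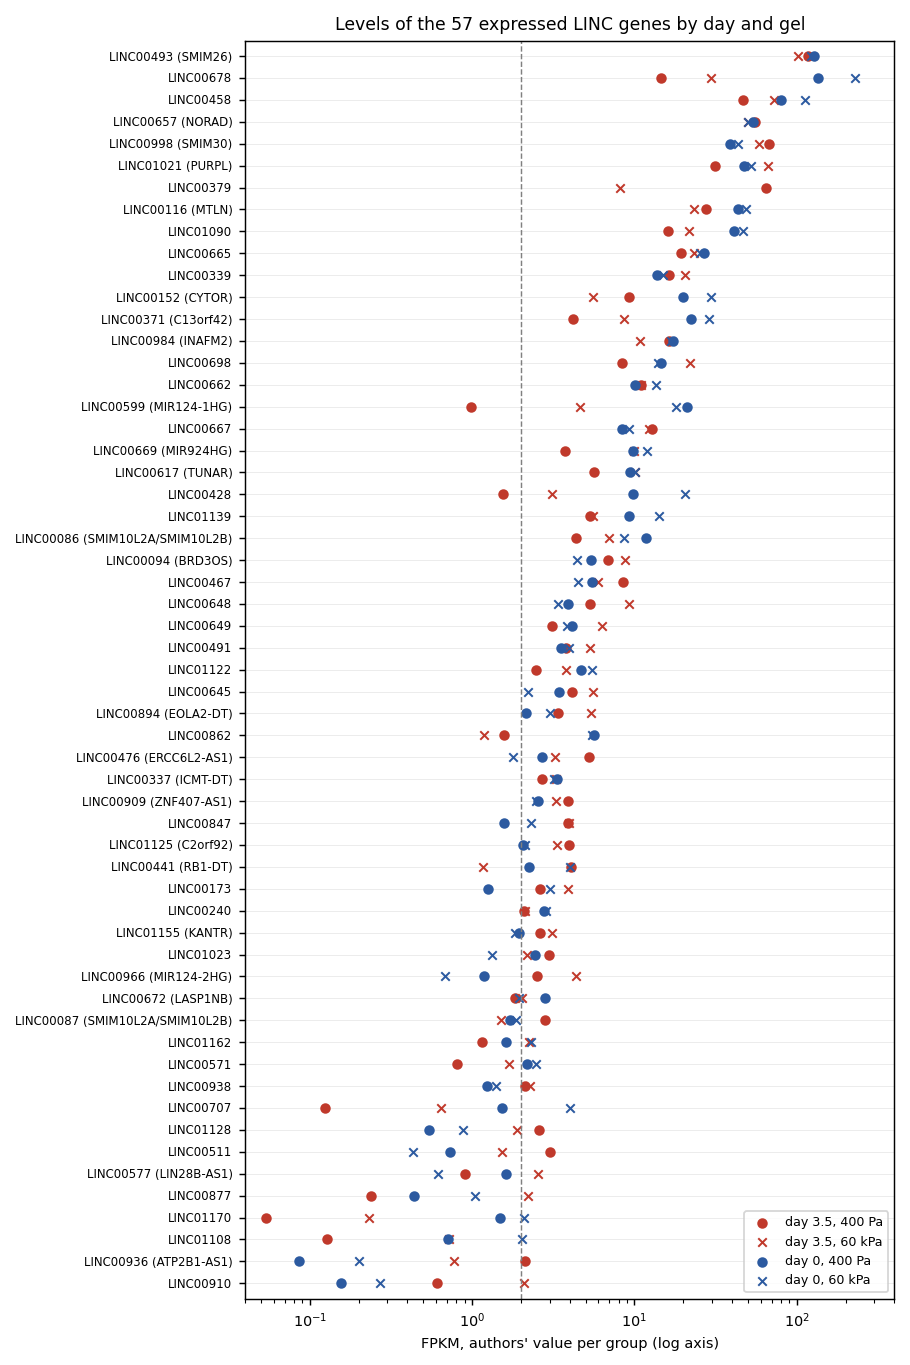
Levels of the 57 expressed lincRNA genes, 1 row per gene ordered by mean level, with the current RefSeq name in parentheses where it differs; the horizontal axis is the authors' FPKM per group on a log axis, circles are 400 Pa and crosses 60 kPa, red is day 3.5 and blue day 0, and the dashed line is the minimum of 2 FPKM. LINC00678 has its blue marks at 135 and 228 FPKM and its red marks at 14.7 and 29.7, whereas the 4 marks of LINC00657 lie between 50.2 and 55.2.

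The genomic loci of the 57 genes were mostly wide and often shared. The width of the authors' locus ran from 0.436 kb for LINC01023 to 636 kb for LINC01122, with a median of 51.1 kb. In the day 3.5 table, 25 genes were alone in their locus, and 32 shared it with other rows. For those, and for antisense pairs, reads of overlapping transcripts cannot be told apart, since the strand setting of the counting is not given. GENCODE matched 54 of the genes, whose longest transcript had a median length of 2832.5 nt. A small RNA gene lies inside 9 of them. Chromosomes 1 and 13 each held 6 of the 57. A further 20 rows at day 3.5 and 17 at day 0 merged a LINC symbol with other genes and were left out.

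The state of the cells differed by day and gel, as marker genes showed. Summed over 7 pluripotency markers, the level was 452 FPKM on the soft and 750 on the stiff gel at day 3.5, and 1536 on the soft and 1675 on the stiff gel at day 0. Summed over 8 primitive streak and mesoderm markers, it was 164 FPKM on the soft and 55.2 on the stiff gel at day 3.5, and 11.2 on the soft and 15.0 on the stiff gel at day 0. At day 3.5 the sum of 5 amnion and trophoblast markers was 148 FPKM on 400 Pa and 29.3 on 60 kPa, that of 5 neuroectoderm markers 92.6 and 218 FPKM on the same gels, and that of 5 fibroblast markers 236 and 42.9 FPKM. The neuroectoderm gap lay mostly in OTX2 (69.3 and 152 FPKM) and HESX1 (5.11 and 45.3), while PAX6 had 17.2 and 19.6. Most of the mesoderm gap lay in HAND1 (53.8 and 6.07 FPKM) and ISL1 (47.7 and 9.44). MIXL1 had 7.60 and 6.39 FPKM, EOMES 4.40 and 3.44, and TBX6 2.13 and 1.94. Most of the fibroblast gap lay in LUM (136 and 4.69 FPKM), while THY1 had 25.5 and 26.8. At day 0 the neuroectoderm sum was 152 FPKM on 400 Pa and 89.5 on 60 kPa, with OTX2 at 136 and 82.2. The fibroblast sum at day 0 was 145 FPKM on 400 Pa and 200 on 60 kPa, with THY1 at 135 and 191. The endoderm markers summed to between 0.174 and 5.08 FPKM in the 4 groups, and SOX1 and FOXA2 were at or near 0 in all of them. Cells on the soft gel at day 3.5 thus had higher sums of mesoderm, amnion and fibroblast marker RNA than cells on the stiff gel. They had less pluripotency marker RNA and less OTX2 and HESX1 RNA. This shift stands beside every comparison of the gels at that day. The part of this shift in the lincRNA levels was not tested.

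At day 3.5 the question is how gel stiffness alters the transcriptome of cells induced to mesoderm. More of the 57 genes were lower on the soft gel than higher, and 0 passed the threshold. A change below is the log2 ratio of FPKM + 1 on the soft gel to FPKM + 1 on the stiff gel, so a negative value means a lower level on 400 Pa. It was below 0 for 38 genes and above 0 for 19, with a median of -0.26. The size of this median rests on the choice of genes: it was -0.14 with a minimum of 1 FPKM, -0.000699 with none and, chosen after seeing the data, -0.092 for genes alone in their locus. Over all symbols with the same minimum, 45.3% were below 0, with a median of 0.04. By the Cufflinks comparison in the authors' deposited table, 0 of 55 tested lincRNAs had a q-value below 0.05, where 1.59% of all tested symbols had one (1.32% in favour of 400 Pa and 0.272% of 60 kPa), and the lowest lincRNA q-value was 0.146. An unadjusted p below 0.05 was found in the authors' deposited table for 7 lincRNAs, and for 6.04% of all tested symbols. Of these 7, 6 were higher on 60 kPa, against 1.92% of all tested symbols, and 1 was higher on 400 Pa, against 4.12%. LINC00877, among the 6, reached the minimum of 2 FPKM only on 60 kPa at day 3.5, so its choice favours a higher level there.

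The 1 gene with such a p that was higher on the soft gel was LINC00379 (chr13:91779867-91863983, hg19), whose function is not known. It had 64.6 FPKM on 400 Pa and 8.16 on 60 kPa, a change of 2.84. Its p in the authors' deposited table was 0.00315 and its q-value 0.165, and the standard error (SE) implied by the deposited log2 ratio and statistic was 1.23. Here and below, an implied SE is on the scale without a pseudocount, whereas a change uses FPKM + 1. The same locus held 13 further rows without a gene name, and all 13 were higher on 400 Pa. Their levels lay between 1.47 and 6.395 FPKM on 400 Pa (median 2.22), and between 0.206 and 2.36 on 60 kPa (median 0.573). The lowest p among those 13 rows in the authors' deposited table was 0.146. No row of the day 0 table overlapped the locus, so its level at day 0 was not analysed here.

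LINC01021, the p53-induced lncRNA now named PURPL, had 31.5 FPKM on the soft and 66.7 on the stiff gel at day 3.5. Its change was -1.06, with an implied SE of 0.64, a p of 0.0079 and a q-value of 0.305 in the authors' deposited table. At day 0 its levels lay close together, at 47.4 FPKM on 400 Pa and 52.5 on 60 kPa. LINC00698 had 8.40 FPKM on the soft and 22.05 on the stiff gel at day 3.5, and 14.6 on the soft and 13.99 on the stiff gel at day 0. Its change at day 3.5 was -1.29, with an implied SE of 0.80, a p of 0.0129 and a q-value of 0.410 in the authors' deposited table. For both genes the gels thus stood further apart at day 3.5 than at day 0, a difference that was not tested. LINC00617, now TUNAR, a conserved gene linked to pluripotency and neural differentiation, had 5.62 FPKM on 400 Pa and 10.03 on 60 kPa (change -0.74, implied SE 0.54, p 0.0272 and q-value 0.653 in the authors' deposited table).

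The other 3 genes with a p below 0.05 were scarce on the soft gel. LINC00599 is the host gene of MIR124-1, which codes for a neuronal microRNA. It had 0.991 FPKM on the soft and 4.595 on the stiff gel at day 3.5, with a change of -1.49, a p of 0.0043 and a q-value of 0.199 in the authors' deposited table. LINC00877 had 0.238 FPKM on 400 Pa and 2.21 on 60 kPa, with a change of -1.37, a p of 0.0026 and a q-value of 0.146 in the authors' deposited table. LINC01108 had 0.128 FPKM on 400 Pa and 0.721 on 60 kPa, with a change of -0.61, a p of 0.0137 and a q-value of 0.426 in the authors' deposited table. For such low levels the pseudocount of 1 shrinks the change. Without it, the log2 ratio in the authors' deposited table, which has the stiff gel on top and is therefore positive here, was 2.21 for LINC00599, 3.21 for LINC00877 and 2.49 for LINC01108, with implied SEs of 1.60, 2.97 and 1.23. For LINC00877 the ratio was close to its implied SE (deposited statistic 1.08), although its deposited p was low. An implied SE and a deposited p therefore cannot stand in for each other.

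Without regard to p and counted on FPKM + 1, 2 genes were at least 2-fold higher on the soft gel at day 3.5 (4.77% of all symbols), namely LINC00379 and LINC00441. LINC00441, which runs away from the promoter of the tumour suppressor gene RB1, had 4.05 FPKM on the soft and 1.17 on the stiff gel at day 3.5, and 2.25 on the soft and 3.99 on the stiff gel at day 0. Its order between gels therefore differed between days, and its implied SEs of 2.01 and 4.21 were larger than its changes of 1.22 and -0.62. RB1 itself, looked up after these values were seen, lay between 11.6 and 13.6 FPKM in the 4 groups. At least 2-fold lower on the soft gel, on FPKM + 1, were 5 genes (3.1% of all symbols): LINC01021, LINC00698, LINC00599, LINC00877 and LINC00669. LINC00669, now MIR924HG, had 3.73 FPKM on 400 Pa and 9.90 on 60 kPa, a change of -1.21. Its deposited log2 ratio, stiff over soft and without a pseudocount, was 1.41 with an implied SE of 2.22. With a pseudocount of 0.1, an alternative chosen after seeing the data for this and the further counts below, 3 genes were at least 2-fold higher (6.61% of all symbols), LINC00936 being added, and 12 at least 2-fold lower (4.87%), with LINC00371, LINC00577, LINC00678, LINC00707, LINC00910, LINC01108 and LINC01170 added. LINC00577 and LINC00910 reached the minimum of 2 FPKM only on 60 kPa at day 3.5, and LINC00936 only on 400 Pa at day 3.5. Their choice thus favours the directions seen.

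**Figure D2:**
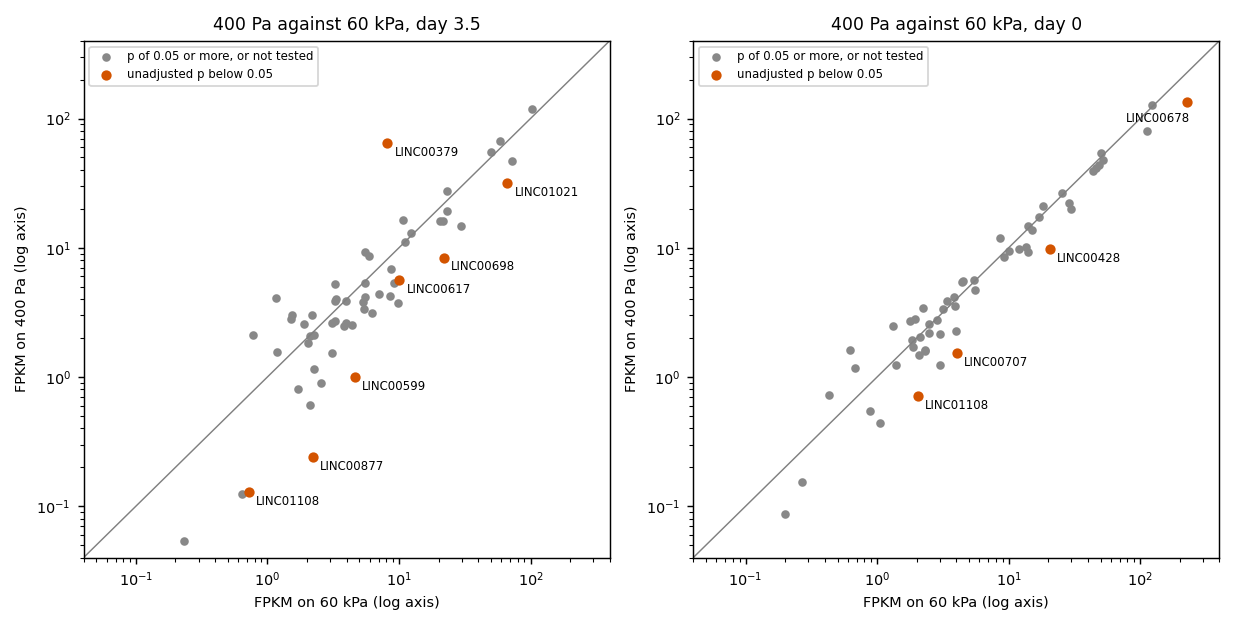
Level on 400 Pa (vertical axis) against level on 60 kPa (horizontal axis) for each expressed lincRNA, as the authors' FPKM per group on log axes, at day 3.5 (left, 57 genes) and day 0 (right, 56 genes); orange points have an unadjusted p below 0.05 in the authors' deposited table and the line marks equal levels. At day 3.5, LINC00379 stands above the line at 64.6 against 8.16 FPKM and 6 orange points lie below it, and at day 0 all 4 orange points lie below it.

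At day 0 the corresponding question is whether stiffness alters self-renewing stem cells. With the minimum of 2 FPKM, the lincRNAs lay closer to equal levels than at day 3.5. The median change was -0.11, with 34 genes below 0 and 22 above. This order of the days depends on the choice of genes. With no minimum the median was -0.031 at day 0 and -0.000699 at day 3.5. For genes alone in their locus, chosen after seeing the data, it was -0.098 at day 0 and -0.092 at day 3.5. Over all symbols the median was 0.02 and 46.4% were below 0. Of 53 tested lincRNAs, 0 had a q-value below 0.05 in the authors' deposited table, where 0.156% of all tested symbols had one by the same Cufflinks comparison (0.0855% in favour of 400 Pa and 0.07% of 60 kPa). The lowest lincRNA q-value was 0.656. An unadjusted p below 0.05 was found in the authors' deposited table for 4 lincRNAs and for 1.85% of all tested symbols. All 4 were higher on 60 kPa, as were 0.886% of all tested symbols, and 0 were higher on 400 Pa, as were 0.964%. Among the 4, LINC00707 and LINC01108 reached the minimum of 2 FPKM only on 60 kPa at day 0. Their choice thus favours a higher level on 60 kPa.

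Those 4 genes were LINC00678, LINC00428, LINC00707 and LINC01108. LINC00678 had 135 FPKM on the soft and 228 on the stiff gel at day 0, with a change of -0.76, an implied SE of 0.52 and a p of 0.037 in the authors' deposited table. LINC00428 had 9.74 FPKM on 400 Pa and 20.6 on 60 kPa, with a change of -1.01, an implied SE of 0.81 and a p of 0.00355 in the authors' deposited table. On FPKM + 1 it was the 1 lincRNA past a fold of 2 at day 0, against 1.78% of all symbols that were at least 2-fold higher on 60 kPa. LINC00707 had 1.53 FPKM on 400 Pa and 4.02 on 60 kPa (change -0.99, p 0.00175 in the authors' deposited table). LINC01108 had 0.713 FPKM on 400 Pa and 2.03 on 60 kPa (change -0.82, p 0.00745 in the authors' deposited table). Without a pseudocount, their deposited log2 ratios, stiff over soft, were 1.40 (implied SE 0.59) for LINC00707 and 1.51 (implied SE 0.75) for LINC01108. LINC01108 was thus the 1 gene with an unadjusted p below 0.05 on both days. On FPKM + 1, 0 lincRNAs were at least 2-fold higher on 400 Pa at day 0, where 2.22% of all symbols were. With a pseudocount of 0.1, LINC00577 passed that fold, with 1.62 FPKM on 400 Pa and 0.620 on 60 kPa (3.77% of all symbols), and 5 genes were at least 2-fold lower (3.03%).

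Between the days, 25 of the 56 genes listed on both were lower on the soft gel at day 3.5 and at day 0, where 19.3% of all symbols were. A further 9 were higher on the soft gel on both days (27.6% of all symbols), and 22 had opposite signs. Among the 25, LINC00707, LINC00877, LINC00910, LINC01108, LINC01162 and LINC01170 reached the FPKM minimum only on the stiff gel. Their choice thus favours a lower level on the soft gel on the day concerned. Among the 9, LINC00511 reached the minimum only on the soft gel, which favours the other direction. The part of this choice in the counts was not tested. Among those higher on the soft gel on both days were LINC00476, antisense to ERCC6L2, with changes of 0.55 at day 3.5 and 0.41 at day 0, LINC01023 with 0.33 and 0.58 on the same days, and LINC00467 with 0.46 and 0.24. Their p-values in the authors' deposited table lay between 0.391 and 0.622 for these genes on both days.

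Levels at day 3.5 were next set beside those at day 0 on the same gel. The tables of the 2 days were made separately, so these differences carry no test. They are given as log2((FPKM + 1) at day 3.5 / (FPKM + 1) at day 0). On 400 Pa the median was -0.16, with 11 genes at least 2-fold lower at day 3.5 (6.36% of all symbols) and 3 at least 2-fold higher (9.87%). On 60 kPa the median was 0.03, with 12 genes at least 2-fold lower (4.44% of all symbols) and 5 at least 2-fold higher (7.02%). The medians of all symbols lay at 0.00 and -0.01. The sign of the lincRNA medians depended on the settings: on 400 Pa the median was 0.060 with a minimum of 1 FPKM and 0.022 with none, and on 60 kPa it was -0.19 with a minimum of 5 FPKM and 0.29 with every row of a symbol. On both gels, 9 lincRNAs were at least 2-fold lower (2.43% of all symbols) and 0 at least 2-fold higher (3.93%), all counted on FPKM + 1, which understates the fold of low genes. With a pseudocount of 0.1, 10 lincRNAs were at least 2-fold lower on both gels (3.6% of all symbols), the further one being LINC01108, and 5 were at least 2-fold higher (6.51%), namely LINC00511, LINC00910, LINC00936, LINC00966 and LINC01128. These 5 reached the minimum of 2 FPKM at day 3.5 only, so their choice favours a higher level on that day. The difference lay lower on 400 Pa than on 60 kPa for 29 of the 56 genes, as it did for 48.5% of all symbols.

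Of those 9 genes, LINC00678 (chr11:27528385-27899195, hg19) was the most abundant. It had 14.7 FPKM on the soft and 29.7 on the stiff gel at day 3.5, and 135 on the soft and 228 on the stiff gel at day 0, which are differences of -3.12 on 400 Pa and -2.90 on 60 kPa. LINC00371 (chr13:51656257-51762769, hg19), listed in RefSeq as the protein-coding C13orf42, had 4.21 FPKM on the soft and 8.58 on the stiff gel at day 3.5, and 22.2 on the soft and 28.98 on the stiff gel at day 0. LINC00428 had 1.54 FPKM on the soft and 3.09 on the stiff gel at day 3.5, and 9.74 on the soft and 20.6 on the stiff gel at day 0. In each of these 3 genes both day 3.5 values lay below both day 0 values, and on each day the 400 Pa value was the lower of the pair.

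LINC00599, the MIR124-1 host, had the largest difference of the 56 genes on 400 Pa, -3.47, and one of -1.77 on 60 kPa. It had 0.991 FPKM on the soft and 4.595 on the stiff gel at day 3.5, and 21.0 on the soft and 18.1 on the stiff gel at day 0. LINC00152, now CYTOR, had 9.25 FPKM on the soft and 5.53 on the stiff gel at day 3.5, and 19.99 on the soft and 29.8 on the stiff gel at day 0. CYTOR has a near-identical copy in the genome, MIR4435-2HG, and reads of the pair cannot be told apart here. Its difference was larger on the stiff gel (-2.24) than on the soft gel (-1.03), the reverse of LINC00599, and neither contrast between gels was tested.

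The other 4 were LINC01090, LINC00862, LINC00707 and LINC01170. LINC01090, which holds the microRNA gene MIR561, had 16.01 FPKM on the soft and 21.6 on the stiff gel at day 3.5, and 41.3 on the soft and 46.5 on the stiff gel at day 0. LINC00862 had 1.57 FPKM on the soft and 1.19 on the stiff gel at day 3.5, and 5.64 on the soft and 5.45 on the stiff gel at day 0. LINC00707 and LINC01170 were below 1 FPKM on both gels at day 3.5. LINC00707 had 0.124 FPKM on 400 Pa and 0.640 on 60 kPa there, and LINC01170 had 0.0534 and 0.232 FPKM on the same gels. Both were left untested by the authors between the gels at day 3.5. LINC00862, LINC00707 and LINC01170 reached the minimum of 2 FPKM at day 0 only, so their choice favours a lower level at day 3.5.

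**Figure D3:**
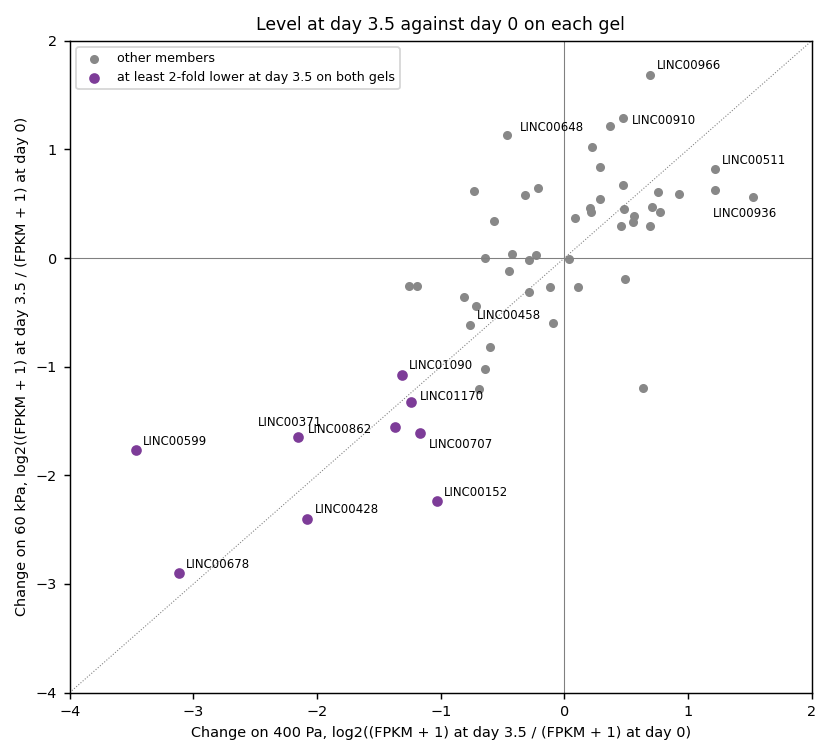
Difference between day 3.5 and day 0 on 400 Pa (horizontal axis) and on 60 kPa (vertical axis) for the 56 lincRNAs listed on both days, each as log2((FPKM + 1) at day 3.5 / (FPKM + 1) at day 0); purple points are at least 2-fold lower at day 3.5 on both gels and the dotted line marks equal differences. The 9 purple points run down to -3.12 and -2.90 for LINC00678, and no gene lies at 1 or above on both axes.

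At least 2-fold lower at day 3.5 on the soft gel only were LINC00669 and LINC00086, and on the stiff gel only LINC00116, LINC01139 and LINC00441. LINC00086 and LINC00087 correspond to the near-identical genes SMIM10L2A and SMIM10L2B, so how reads were split between them is uncertain. LINC00086 had 4.36 FPKM on the soft and 6.99 on the stiff gel at day 3.5, and 11.8 on the soft and 8.57 on the stiff gel at day 0. LINC00087 had 2.81 FPKM on the soft and 1.51 on the stiff gel at day 3.5, and 1.72 on the soft and 1.87 on the stiff gel at day 0. On both days the gel with the higher level of the one had the lower level of the other.

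On the FPKM + 1 scale, the genes at least 2-fold higher at day 3.5 on 400 Pa were LINC00936, LINC00511 and LINC01128. LINC00936, now ATP2B1-AS1, had 2.12 FPKM on the soft and 0.775 on the stiff gel at day 3.5, and 0.0864 on the soft and 0.200 on the stiff gel at day 0. LINC00511 had 3.02 FPKM on the soft and 1.53 on the stiff gel at day 3.5, and 0.728 on the soft and 0.434 on the stiff gel at day 0. LINC01128 had 2.58 FPKM on the soft and 1.89 on the stiff gel at day 3.5, and 0.543 on the soft and 0.877 on the stiff gel at day 0. All 3 were also higher at day 3.5 on 60 kPa on the FPKM + 1 scale, by 0.56 for LINC00936, 0.82 for LINC00511 and 0.62 for LINC01128. With a pseudocount of 0.1 these differences on 60 kPa were 1.54 for LINC00936, 1.61 for LINC00511 and 1.03 for LINC01128, past a fold of 2. All 3 reached the minimum of 2 FPKM on 400 Pa at day 3.5 and in no other group, so their choice favours this direction.

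On 60 kPa and the same scale, the genes at least 2-fold higher at day 3.5 were LINC00966, LINC00910, LINC00648, LINC00577 and LINC00645. LINC00966, now MIR124-2HG, hosts another copy of the same microRNA gene as LINC00599. It had 2.52 FPKM on the soft and 4.39 on the stiff gel at day 3.5, and 1.18 on the soft and 0.676 on the stiff gel at day 0. The pair of hosts thus differed in opposite directions between the days, although both were lower on the soft gel at day 3.5. LINC00966 reached the minimum of 2 FPKM at day 3.5 only, so its choice favours a higher level on that day. LINC00910 had 0.604 FPKM on the soft and 2.09 on the stiff gel at day 3.5, and 0.155 on the soft and 0.269 on the stiff gel at day 0. LINC00577, now LIN28B-AS1, had 0.902 FPKM on the soft and 2.56 on the stiff gel at day 3.5, and 1.62 on the soft and 0.620 on the stiff gel at day 0, so that it was lower at day 3.5 on the soft gel and higher on the stiff gel. None of these 5 had a p below 0.05 between gels on that day, going by the authors' deposited table. LINC00910 and LINC00577 reached the minimum only on 60 kPa at day 3.5, so their choice favours a higher level there.

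Of the genes of a list of pluripotency-linked lincRNAs, LINC00678, LINC00458, LINC00617 and LINC01108 were expressed, LINC-ROR was below the minimum, and LINC00545 was not analysed here. None of the 4 passed a q-value of 0.05 in the authors' deposited table on either day, and 2 of them had an unadjusted p below 0.05 on each day. All 4 were lower on the soft gel on both days, with a median change of -0.69 at day 3.5 and -0.62 at day 0. For LINC00617 the gels were nearly level at day 0, with 9.37 FPKM on 400 Pa and 10.02 on 60 kPa (change -0.09). LINC01108 reached the minimum of 2 FPKM only on 60 kPa at day 0. Its choice thus favours a lower level on the soft gel at day 0 and a lower level at day 3.5. LINC00458 (chr13:54686329-54707001, hg19), also known as HBL1, had 46.6 FPKM on the soft and 73.0 on the stiff gel at day 3.5, and 80.1 on the soft and 112 on the stiff gel at day 0. Its changes between gels, -0.63 at day 3.5 and -0.48 at day 0, were smaller than their implied SEs of 0.89 for day 3.5 and 0.56 for day 0. Compared with LINC00678 its difference between days was small, -0.77 on 400 Pa and -0.61 on 60 kPa. LINC00617 was lower at day 3.5 on the soft gel by a difference of -0.65 and level on the stiff gel, with 10.03 FPKM at day 3.5 and 10.02 at day 0. LINC01108 was lower at day 3.5 on both gels, with differences of -0.60 on 400 Pa and -0.82 on 60 kPa. LINC-ROR, known as a regulator of reprogramming, had 0.200 FPKM on the soft and 0.479 on the stiff gel at day 3.5, and 0.316 on the soft and 1.03 on the stiff gel at day 0. These 4 genes were thus lower where the summed pluripotency markers were lower between gels at day 3.5, and the part of the cell state in their levels was not tested.

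The other lists held few expressed genes. Of the endoderm and mesoderm-linked lincRNAs, LINC00261 and LINC01116 were at most 0.214 FPKM in every group listed. Of the neural-linked ones, LINC00599 was the 1 expressed gene, while LINC00461 stayed at or below 0.114 FPKM. LINC00632 reached 1.73 FPKM. Among microRNA hosts, LINC00478 had 0.861 FPKM on the soft and 0 on the stiff gel at day 3.5. Of the genes listed for small proteins, LINC00961 and LINC00948 stayed at or below 0.462 FPKM. LINC01158 and LINC00925 were below 1 FPKM in every group listed, and LINC01551, LINC00472, LINC00338 and LINC01420 were not analysed here.

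Of a list of lincRNAs expressed in many tissues, 7 were expressed here, 0 of them with a p below 0.05 between gels on either day in the authors' deposited table. LINC00657, now NORAD, which binds PUMILIO proteins, was the steadiest of the abundant genes, with 55.2 FPKM on the soft and 50.2 on the stiff gel at day 3.5, and 53.8 on the soft and 50.4 on the stiff gel at day 0. LINC00665 had 19.3 FPKM on the soft and 23.3 on the stiff gel at day 3.5, and 26.7 on the soft and 25.4 on the stiff gel at day 0. LINC00662 lay between 10.1 and 13.5 FPKM in the 4 groups, LINC00667 between 8.42 and 12.9, LINC00339 between 13.8 and 20.4 and LINC00467 between 4.53 and 8.57. LINC00152, whose values are given above, had the largest difference between days in this list.

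The genes now known as protein-coding were spread evenly about 0 between the gels. Of the 12 that RefSeq lists as protein-coding, 6 were above 0 and 6 below 0 between gels on each day, with medians of 0.05 at day 3.5 and 0.01 at day 0. Of the 35 still listed as plain lncRNAs, 26 were below 0 at day 3.5, with a median of -0.34. The difference between these classes was not tested. LINC00493 (SMIM26, a small mitochondrial protein), whose frame is printed above, had the highest mean of all 57 genes, with 118 FPKM on the soft and 102 on the stiff gel at day 3.5, and 127 on the soft and 123 on the stiff gel at day 0. LINC00998 (SMIM30, a small membrane protein) had 67.1 FPKM on the soft and 58.7 on the stiff gel at day 3.5, and 38.9 on the soft and 43.5 on the stiff gel at day 0. LINC00116 (MTLN, mitoregulin, a small protein of the inner mitochondrial membrane) had 27.4 FPKM on the soft and 23.3 on the stiff gel at day 3.5, and 43.4 on the soft and 48.4 on the stiff gel at day 0. Between the days the mitochondrial MTLN was thus lower at day 3.5 and SMIM30 higher, on both gels, while SMIM26 differed by at most 0.26 log2 units.

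The 4 genes that RefSeq names as antisense RNAs (LINC00476, LINC00909, LINC00577 and LINC00936) included LINC00577 and LINC00936, which reached the minimum in a single day 3.5 group, so that their higher level there follows from how they were chosen. The 3 divergent transcripts (LINC00894, LINC00337 and LINC00441) had no common direction. The 3 microRNA hosts (LINC00599, LINC00966 and LINC00669) were all lower on the soft gel at day 3.5, with a median change of -1.21.

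For 46 of the 57 genes, another expressed gene lay within 100 kb, and for 17 of these it overlapped the lincRNA's locus. The sign of the lincRNA's change matched that of the neighbour in 33 of 46 pairs between gels at day 3.5, in 29 between gels at day 0, in 32 between days on 400 Pa and in 31 between days on 60 kPa. Spearman's rho over the 46 pairs lay between 0.22 and 0.33 for these 4 comparisons. Pairs share libraries, and overlapping ones may share reads, so this is a description. Overlapping pairs were not counted apart. The share of matching signs among neighbouring genes of any kind was not computed, so these counts cannot be read as particular to lincRNAs.

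Some of these pairs were high and low in the same groups. ATP2B1, which codes for a plasma membrane calcium pump and overlaps LINC00936, had 67.6 FPKM on the soft and 41.4 on the stiff gel at day 3.5, and 11.6 on the soft and 13.2 on the stiff gel at day 0. That is the order of LINC00936 in all 4 groups. FAM124A, 33.7 kb from LINC00371, had 3.01 FPKM on the soft and 6.03 on the stiff gel at day 3.5, and 10.9 on the soft and 11.1 on the stiff gel at day 0. CTD-2308B18.3, 87.7 kb from LINC01170, had 1.66 FPKM on the soft and 4.97 on the stiff gel at day 3.5, and 48.9 on the soft and 73.3 on the stiff gel at day 0. The level of CTD-2308B18.3 was far above that of LINC01170, with the same order of the 4 groups.

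Other pairs did not share their pattern. LIN28B, an inhibitor of the let-7 microRNAs that lies 0.2 kb from LINC00577, had 61.8 FPKM on the soft and 64.8 on the stiff gel at day 3.5, and 77.3 on the soft and 74.8 on the stiff gel at day 0, and so was lower at day 3.5 on both gels. BDNF, a neurotrophin gene near LINC00678 that was looked up after the values were seen, had 0.996 FPKM on the soft and 2.62 on the stiff gel at day 3.5, and 1.68 on the soft and 1.62 on the stiff gel at day 0. It showed nothing like the difference between days of LINC00678. The neighbour that the rule takes for LINC00678, RP11-587D21.1, overlaps its locus. RP11-587D21.1 had 84.9 FPKM on the soft and 65.4 on the stiff gel at day 3.5, and 42.2 on the soft and 49.6 on the stiff gel at day 0. It was thus higher at day 3.5 on both gels, where LINC00678 was lower. EPSTI1, 17.9 kb from LINC00428, had 3.88 FPKM on the soft and 2.70 on the stiff gel at day 3.5, and 0.0919 on the soft and 0.398 on the stiff gel at day 0, which is the opposite direction between the days.

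The promoter windows of the 38 lincRNAs with an entry, such as those printed above, held a median of 17 CG dinucleotides, with a range from 0 to 51. Over all 35116 RefSeq promoter windows the median was 14, with a range from 0 to 77. Of the 9 lincRNAs at least 2-fold lower at day 3.5 on both gels, 4 had an entry: LINC00862 with 3 CG dinucleotides, LINC00152 with 5, LINC01170 with 7 and LINC00371 with 8. The other 34 had a median of 21 and ranged from 0 to 51. LINC01108 held 4. Of the genes at least 2-fold higher at day 3.5 on 1 gel, 4 had an entry: LINC00910 with 13 CG dinucleotides, LINC00511 with 35, LINC00936 with 43 and LINC00577 with 51. All 4 reached the minimum of 2 FPKM in a single day 3.5 group. LINC00862, LINC01170 and LINC01108 reached it at day 0 only. The choice of these genes thus favours the directions seen. Of those at least 2-fold lower on 1 gel only, LINC00669 held 3, LINC00116 held 25 and LINC00441 held 48. Low numbers also occurred in genes that were not lower on both gels, such as LINC01125 with 5 and LINC00877 with 6. With 4 genes the contrast is a description without a test. Methylation was not measured.

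The motif TATAAA, on either strand, occurred in the windows of 4 of the 38 genes (10.53%, against 11.5% of all RefSeq promoter windows), which were LINC00998, LINC00571, LINC01108 and LINC00910. The octamer ATGCAAAT, bound by POU factors, occurred on either strand in 0 of the 38 windows and in 1.77% of all. These letters being absent from a 300-base window says nothing about the factor.

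**Figure D4:**
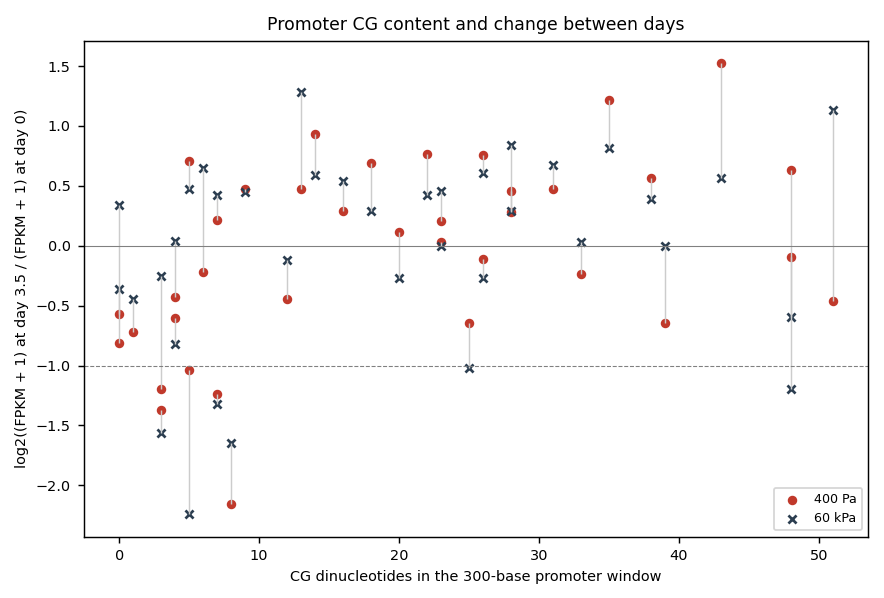
Number of CG dinucleotides in the 300-base promoter window (horizontal axis) and difference between days, log2((FPKM + 1) at day 3.5 / (FPKM + 1) at day 0) (vertical axis), with 1 circle for 400 Pa and 1 cross for 60 kPa per gene joined by a line, for lincRNAs with a RefSeq promoter entry that were listed on both days; the dashed line marks a level 2-fold lower at day 3.5. The 4 genes with both marks below the dashed line hold 3 to 8 CG dinucleotides, and LINC00936 at 43 has the highest circle. LINC00936 reached the minimum of 2 FPKM only on 400 Pa at day 3.5, and LINC00862 and LINC01170 only at day 0, so their choice favours these directions.

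A short list of long noncoding RNAs with names of other kinds served as context. It does not cover all such genes, and those outside it were not counted. Of the 25 listed genes with at least 2 FPKM in some group, 17 were below 0 between gels at day 3.5, with a median of -0.14. At day 0, 3 of 24 were below 0, with a median of 0.16. Over all symbols with the same minimum, 45.3% were below 0 at day 3.5 and 46.4% at day 0. Several of the 25 are SNHG genes, with levels up to 20069.8 FPKM for SNHG7 on 400 Pa at day 3.5. At day 0 most of the listed genes were thus higher on the soft gel, while most LINC genes were lower there. That difference was not tested and holds for the listed genes only. FENDRR, known from lateral mesoderm of the mouse, was the 1 gene of either kind to pass the threshold, with 2.71 FPKM on the soft and 0.0923 on the stiff gel at day 3.5 and a q-value of 0.0231 in the authors' deposited table. HOTAIRM1, of the HOXA cluster, had 17.9 FPKM on the soft and 3.798 on the stiff gel at day 3.5 and was at most 0.109 FPKM at day 0. CRNDE had 43.0 FPKM on the soft and 53.0 on the stiff gel at day 3.5, and 11.7 on the soft and 8.55 on the stiff gel at day 0. MALAT1, an abundant nuclear lncRNA, had 281 FPKM on the soft and 449 on the stiff gel at day 3.5, and 202 on the soft and 187 on the stiff gel at day 0.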

How the data were processed

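Total RNA of 8 libraries in 4 groups of 2 was sequenced. Per the submitters' processing notes, the authors used Cufflinks (version not given in the sources used here) and genome build hg19. The deposited tables, 1 per day, give per locus 1 FPKM for each gel and, from the authors' comparison of the gels, a log2 ratio (stiff over soft), a p-value, a q-value and a statistic (a score). The tables' q-values are a Benjamini-Hochberg adjustment over the tested loci, 20670 at day 3.5 and 19486 at day 0: recomputing it returned the deposited values within 5.24e-07. The smallest deposited p-value was 5e-05.

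Changes were computed here as log2 ratios of FPKM + 1. The pseudocount of 1 understates changes of low genes. Dividing the deposited log2 ratio by its statistic gave the implied SE, an approximation on the scale without pseudocount. Without values per library the design's test over libraries could not be fitted, so calls are the authors' q-values below 0.05.

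Members and lists were chosen with earlier results of these data known. Genes were named with all values if they were among the 8 highest means, among the 5 largest changes between gels per day and direction or the 6 largest between days per gel and direction, in a role list, or nearest the FPKM minimum. Neighbours are the nearest single-symbol locus within 100 kb with at least 2 FPKM. Other genes named were chosen after their values were seen. Some items that these rules take are not reported here. Starts in the tables count from 0 and were raised by 1. Names and sequences came from GENCODE 29 and RefSeq (GRCh38.p14). The steps were tested on simulated data. Alternatives were other pseudocounts, FPKM minimums and thresholds, centring, every row of a symbol and subsets of the genes. Scripts ran in Python 3.11.15 with numpy 2.4.6, pandas 2.3.3, matplotlib 3.10.9 and scipy 1.17.1.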

Additional observations from a re-analysis of the deposited data

How the results depend on the processing

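No lincRNA was called between the gels on either day at a q-value below 0.1, with the adjustment recomputed, with a minimum fold of 2, with every row of a symbol, or with FPKM minimums of 1, 5 or none; an unadjusted p below 0.05 gave 7 at day 3.5 and 4 at day 0. The median change between gels at day 3.5 was -0.14 with a minimum of 1 FPKM, -0.000699 with none and, chosen after seeing the data, -0.092 for genes alone in their locus. Between days on 400 Pa the median was 0.060 with a minimum of 1 FPKM, -0.51 with 5 and 0.022 with none, so its sign depends on the minimum. On 60 kPa it was -0.19 with a minimum of 5 and 0.29 with every row of a symbol. Chosen after seeing the data, it was 0.29 for all genes that RefSeq lists as lncRNAs, microRNA hosts, divergent transcripts and antisense RNAs included. For the 35 plain lncRNAs alone it was 0.14. With a minimum of 5, 9 genes on 400 Pa and 11 on 60 kPa were past a fold of 2 between days, against 14 and 17, since fewer genes enter. With a pseudocount of 0.1 in place of 1, for counts chosen after seeing the data, 12 against 5 genes were at least 2-fold lower on 400 Pa at day 3.5, 5 against 1 at day 0, and 5 against 0 at least 2-fold higher at day 3.5 on both gels. For the other values the cause was not tested. Centring turned the sign of 1 of 207 named changes, one of at most 0.01. No paired analysis was possible because the tables hold 1 value per group and no replicate numbers, and for the same reason no library could be left out. Depth is unknown, so no limit for low levels can be given.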

Other observations

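The 277 LINC symbols below the minimum gave no call either: of 23 tested at day 3.5 and 13 at day 0, 0 had a q-value below 0.05 in the authors' deposited table by the Cufflinks comparison, and 3 at day 3.5 and 2 at day 0 had an unadjusted p below 0.05. Of the rows that merge a LINC symbol with other genes, 9 on each day had at least 2 FPKM in a group, and 0 were called.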
